A study of Homo sapiens with 16 samples.

Results

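A set of 41 genes of glucose metabolism and of the response to low oxygen was followed in HCT116 cells, an established line from a human colon cancer, after inhibition or knockdown of G9a, a histone methyltransferase encoded by EHMT2. They were chosen by gene symbol from the deposited expression files: 17 enzymes and subunits from hexokinase to lactate dehydrogenase, 4 glucose and lactate transporters, 3 regulatory kinases, 6 genes of the pentose phosphate pathway, and 11 genes of the hypoxia response. All 41 symbols were found among the 63653 genes of the files, and 40 of them entered the test, which covered 12846 genes with a mean of at least 1 FPKM (Cufflinks' estimate of fragments per transcript length and library size) and a locus of at least 300 bases. The one left out was CA9, a carbonic anhydrase on the cell surface, whose mean was under 1 FPKM.

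RNA sequencing covered 4 groups of 2 libraries, each library with 2 sequencing runs that were averaged and counted once. One group received 0.5 µM of the G9a inhibitor BIX 01294 for 72 h, and another was transfected for 72 h with a G9a siRNA (small interfering RNA) at 10 nM, with the lipid reagent RNAiMAX. Each treatment had a control group of its own, for which the labels name no agent. The design text calls the replicates biological but names no separate cultures, and the p-values therefore cover only library-to-library spread, part of which may be technical. No genotype change is given for any group, and all 4 groups are the same cell line.

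Glycolysis splits glucose into pyruvate and yields ATP and NADH, and lactate dehydrogenase turns pyruvate into lactate while restoring NAD+. The pentose phosphate pathway branches off after the first step and supplies NADPH and ribose. The transcription factor HIF-1, whose alpha subunit is encoded by HIF1A, binds a short core motif in promoters and raises many glycolytic genes when oxygen is low, and prolyl hydroxylases such as EGLN1 mark that subunit for degradation when oxygen is present. Colon cancer lines are known for taking up much glucose and releasing lactate.

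The promoters of these genes were searched for the core letters ACGTG and GCGTG on both strands, in windows from 250 bases before to 50 bases after each transcript start in RefSeq (build GRCh38.p14). The windows held at least 1 match in 63.5% of those of the 36 matched genes (40 of 63), in 77.8% of those of the 8 matched hypoxia genes (7 of 9), and in 48.4% of all 35116 windows. SLC2A3, SLC16A1, VEGFA, BNIP3L and NDRG1 had no entry in the table. The stretches below lie before the annotated start and show how the matches are spaced in 2 hypoxia genes and in 4 metabolic genes on which the results turn, the latter chosen after their values were seen. For HK2 and LDHA there is a further window each with matches, 3 for HK2 and 5 for LDHA before the start. These are not printed because they lie largely in exons annotated in GENCODE 29 (210 of 210 bases for HK2, 119 of 141 for LDHA). The LDHA stretch shown is thus not the one with most matches. The printed BNIP3 stretch has 3 bases in such exons. Capitals mark the matches, a CACGTG counts on both strands, and a match is a description of the letters and not a binding site.
BNIP3, chr10:131982011-131982078, minus strand, 6 matches: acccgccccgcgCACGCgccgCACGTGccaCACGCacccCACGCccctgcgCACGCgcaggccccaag
HIF1A, chr14:61695297-61695325, plus strand, 1 match: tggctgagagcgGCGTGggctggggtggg
PGK1, chrX:78104025-78104081, plus strand, 3 matches: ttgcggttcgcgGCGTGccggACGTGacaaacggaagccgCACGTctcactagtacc
LDHA, chr11:18396216-18396244, plus strand, 1 match: aatgcgcatgcgCACGCgcacaagttcct
HK2, chr2:74834964-74835116, plus strand, 6 matches: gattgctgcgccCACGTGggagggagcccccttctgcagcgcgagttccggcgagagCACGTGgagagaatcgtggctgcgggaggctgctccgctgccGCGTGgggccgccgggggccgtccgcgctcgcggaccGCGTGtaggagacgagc
PGD, chr1:10398820-10399036, plus strand, 3 matches: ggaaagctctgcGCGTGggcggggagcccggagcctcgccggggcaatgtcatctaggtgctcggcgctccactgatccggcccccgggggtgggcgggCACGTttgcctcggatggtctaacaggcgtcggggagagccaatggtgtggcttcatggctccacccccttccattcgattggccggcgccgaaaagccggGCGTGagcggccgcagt
Genes that fell and genes that rose in the comparisons below are both among these 6.

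EHMT2, the targeted gene (hg19 chr6:31847536-31865464), had 24.7 and 21.0 scaled FPKM in the inhibitor controls, 19.7 and 18.9 with inhibitor, 15.9 and 17.8 in the siRNA controls, and 4.68 and 4.54 with siRNA. It fell with siRNA by 1.67 ± 0.09 (log2 change of scaled FPKM + 1 and its standard error; limma adjusted p = 0.000268, n = 2 per group). With the inhibitor, a compound that acts on the protein, its log2 difference was -0.23 (limma adjusted p = 0.0827). Scaled FPKM means the deposited FPKM after median-of-ratios scaling between libraries. All levels below are on that scale, except the means of overlapping genes and of pseudogenes, which are of the deposited FPKM.

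Both inhibitor controls differed in RNA makeup from the remaining 6 libraries. They correlated at 0.993 with each other (Pearson, across genes, on the log2 scale) and at 0.957 to 0.974 with the others, which correlated at 0.985 to 0.995 among themselves. The ribosomal RNA RNA28S5 was listed at 210.2 and 40.8 FPKM in them against 1045 to 18918 elsewhere, and the nuclear RNA MALAT1 at 230.1 and 188.8 against 55.4 to 78.4. Epithelial markers summed to 659 to 787 FPKM over the 8 libraries, with 1 of 10 at 0 in each, and fibroblast markers to 1.99 to 3.85, with 3 to 5 of 10 at 0 in each. With inhibitor against its controls, 1 of the 8 tested epithelial markers rose and 3 fell (50%, beside 36.5% of all genes tested). The 1 tested fibroblast marker was not called. In the siRNA controls against the inhibitor controls, 1 of the 8 was higher and 4 were lower (62.5%, beside 38.3%). The fibroblast marker, COL1A1, was lower there (1.93 to 0.913 FPKM, limma adjusted p = 0.0224). In bulk RNA, fewer cells of a kind and less RNA per cell cannot be told apart. Every comparison with the inhibitor controls below rests on these 2 libraries, and the part of the RNA makeup in those comparisons was not tested.

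With the inhibitor, set against its own controls, 23 of the 40 tested genes changed: 9 rose and 14 fell (limma, adjusted p under 0.05). That is 57.5% of them, beside 36.5% of all genes tested (17.7% higher and 18.7% lower). The largest decreases were in PGD, HK2, HK1, LDHA, ENO2 and GPI, by between 1.71- and 2.69-fold, and the increases, among them BNIP3, PGAM1, HIF1A and PGK1, stayed within 1.33-fold. The median log2 change was -0.013 over these genes and 0.0088 over all genes. The libraries of the 2 groups did not overlap for 30 of the 40 genes, beside 71.5% of all genes. With the FPKM as deposited, without scaling between libraries, 15 of the 40 genes were called, 2 higher and 13 lower. That setting called 3112 of all 12846 genes, 1083 higher and 2029 lower.

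**Figure D1:**
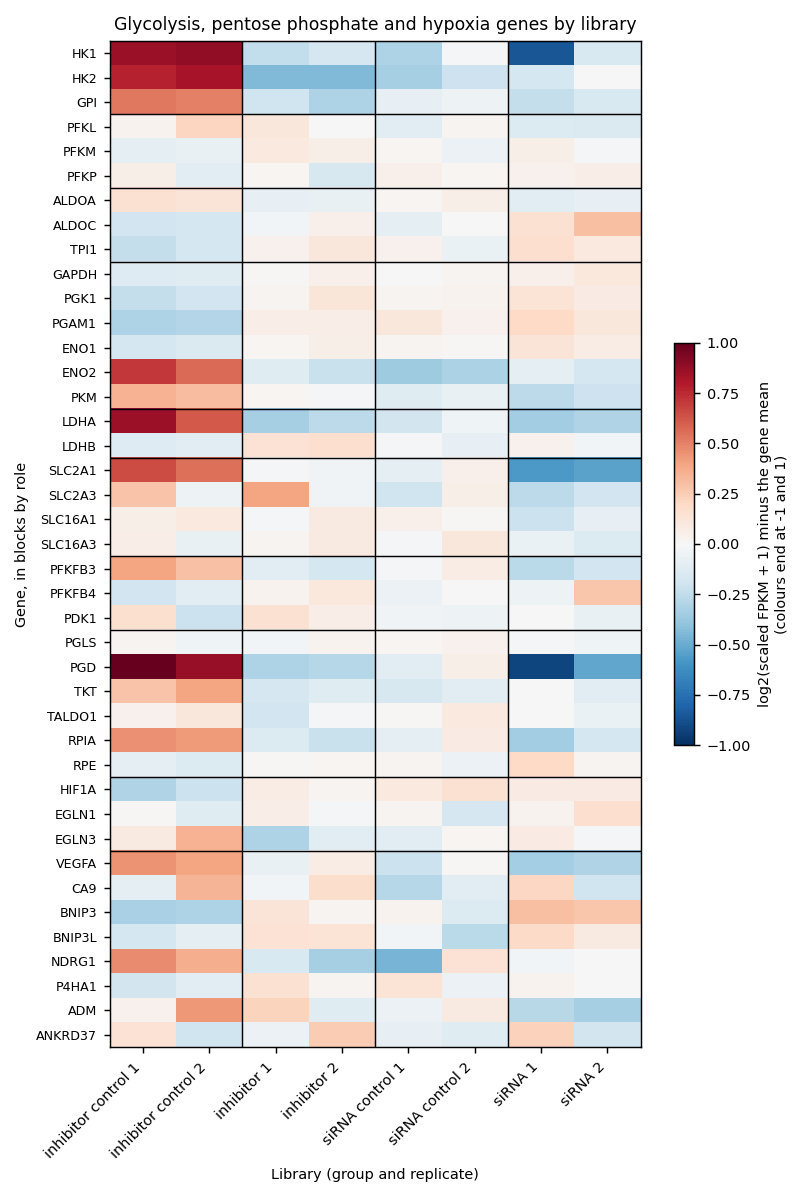
Heat map of the 41 genes (rows, in blocks by role) in the 8 libraries (columns, by group and replicate). Colour gives log2(scaled FPKM + 1) minus the gene's mean over the 8 libraries, with the colour scale ending at -1 and 1. The 2 inhibitor control columns are red for genes such as HK2, LDHA and PGD and blue for genes such as HIF1A and PGAM1, and the other 6 columns differ less from each other.

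The hexokinases and the isomerase that follows them, 3 genes for the opening steps, all fell with inhibitor, beside 18.7% of all genes. HK2 (hg19 chr2:75061108-75120486), a hexokinase that traps glucose in the cell and is typical of tumour cells, had 10.7 and 11.2 FPKM in the inhibitor controls, with 4.07 in both inhibitor libraries. It was at 4.45 and 4.94 in the siRNA controls and at 5.07 and 5.88 with siRNA, so that the inhibitor controls lay above all other libraries. Its log2 change with inhibitor was -1.24 ± 0.10 (limma adjusted p = 6.18e-05). HK1 (chr10:71029740-71161638), the hexokinase of most tissues, had 16.7 and 16.9 FPKM in the inhibitor controls, 7.21 and 7.67 with inhibitor, 6.83 and 8.57 in the siRNA controls, and 4.37 and 7.77 with siRNA. The change with inhibitor was -1.08 ± 0.20 on the log2 scale (limma adjusted p = 0.0029), and the siRNA libraries differed more from each other than the siRNA group mean did from its control mean. GPI (chr19:34850385-34893061), which converts glucose 6-phosphate to fructose 6-phosphate, was at 185 and 182 FPKM, 111 and 103, 121 and 123, and 108 and 115 in the same order of groups. It fell with inhibitor by 0.77 ± 0.05 on the log2 scale (limma adjusted p = 2.88e-05).

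The phosphofructokinase subunits, which form the committed step, and the aldolases differed little. PFKP, the platelet type, lay between 71.8 and 84.1 FPKM and PFKL, the liver type, between 11.3 and 14.8 FPKM over all libraries, and neither was called. PFKM, the muscle type, had 47.0 and 47.5 FPKM in the inhibitor controls and 53.8 and 52.3 with inhibitor, a log2 change of 0.16 (limma adjusted p = 0.0451), which missed the threshold under 10 of 12 alternatives. ALDOA, the main aldolase here, was at 637 and 624 FPKM against 539.8 and 542, a log2 decrease of -0.22 ± 0.04 (limma adjusted p = 0.00449). ALDOC, the brain-type aldolase, was at 26.7 and 26.9 FPKM against 29.9 and 31.7 (log2 difference 0.19, limma adjusted p = 0.0554). TPI1, which interconverts the triose phosphates, was at 819 and 857 FPKM against 997 and 1045, and rose by 0.28 ± 0.06 on the log2 scale (limma adjusted p = 0.00465). The ALDOA and TPI1 calls were lost with the FPKM as deposited.

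In the lower part of glycolysis, 4 of 6 genes rose and 2 fell with inhibitor, beside 17.7% and 18.7% of all genes. PGAM1 (chr10:99185917-99193198), a phosphoglycerate mutase, had 72.4 and 73.3 FPKM in the inhibitor controls, 94.2 and 94.5 with inhibitor, 97.6 and 92.7 in the siRNA controls, and 104 and 97.7 with siRNA. PGK1 (chrX:77320685-77384793), which makes the first ATP of the pathway, was at 333 and 345 FPKM, then 401 and 427, 399 and 402, and 432 and 416. Both genes had their lowest levels in the inhibitor controls. PGAM1 rose by 0.37 ± 0.05 (limma adjusted p = 0.000854) and PGK1 by 0.29 ± 0.05 (limma adjusted p = 0.00217) on the log2 scale. ENO1, the main enolase, was at 939.8 and 963 FPKM against 1074 and 1106 (log2 0.20, limma adjusted p = 0.0109), and GAPDH (chr12:6643093-6647537), the eleventh most abundant of the genes tested, was at 2356 and 2374 against 2603 and 2666 (log2 0.16, limma adjusted p = 0.0389; -0.015 with quantile normalization). An antisense gene with a mean of 687 FPKM overlaps GAPDH, and no source used here says whether counting used the strand.
The calls of PGK1, ENO1 and GAPDH were lost with the FPKM as deposited, and those of ENO1 and GAPDH also with quantile normalization, with no filter, without inhibitor control replicate 1 and without inhibitor replicate 2.

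The 2 genes that fell in that segment were ENO2 and PKM. ENO2 (chr12:7022909-7032861), the enolase known from neurons, had 13.4 and 12.03 FPKM in the inhibitor controls, with 5.88 to 7.29 elsewhere. Its change with inhibitor was -0.81 ± 0.09 on the log2 scale (limma adjusted p = 0.000297). The protein-coding gene LRRC23, with a mean of 4.997 FPKM, overlaps ENO2 up to position 7023407. PKM, the pyruvate kinase of the last step, had 507 and 492 FPKM in the inhibitor controls, 402 and 395 with inhibitor, 365 and 377 in the siRNA controls and 331 and 345 with siRNA, and fell with inhibitor by 0.32 ± 0.05 (limma adjusted p = 0.000905). Summed over the 17 enzymes and subunits, the level was 7051 and 7054 FPKM in the inhibitor controls, 7310 and 7478 with inhibitor, 7250 and 7238 in the siRNA controls, and 7458 and 7466 with siRNA. On this scale the sum was lowest in the inhibitor controls. Of the 17 genes, 7 fell and 7 rose with inhibitor (82.4%, beside 36.5% of all genes). The order of the sums rests on the scaling between libraries. The deposited values were divided by 1.09 and 1.03 for the inhibitor controls and by 1.03 and 1.07 for the inhibitor libraries. The factors were 1.01 and 0.925 for the siRNA controls and 0.981 and 0.878 for siRNA.

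The lactate dehydrogenase subunits moved in opposite directions. LDHA (chr11:18415935-18429972), the subunit that favours lactate formation, had 397 and 337 FPKM in the inhibitor controls, 174 and 183 with inhibitor, 193 and 213 in the siRNA controls, and 172 and 178 with siRNA. It fell with inhibitor by 1.03 ± 0.08 on the log2 scale, 2.06-fold (limma adjusted p = 4.37e-05). LDHB (chr12:21788276-21910791), the heart-type subunit, was at 594 and 603 FPKM, then 716 and 729.6, 642 and 612, and 669 and 636. It rose by 0.27 ± 0.05 (limma adjusted p = 0.00269), a call that was lost with the FPKM as deposited.

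**Figure D2:**
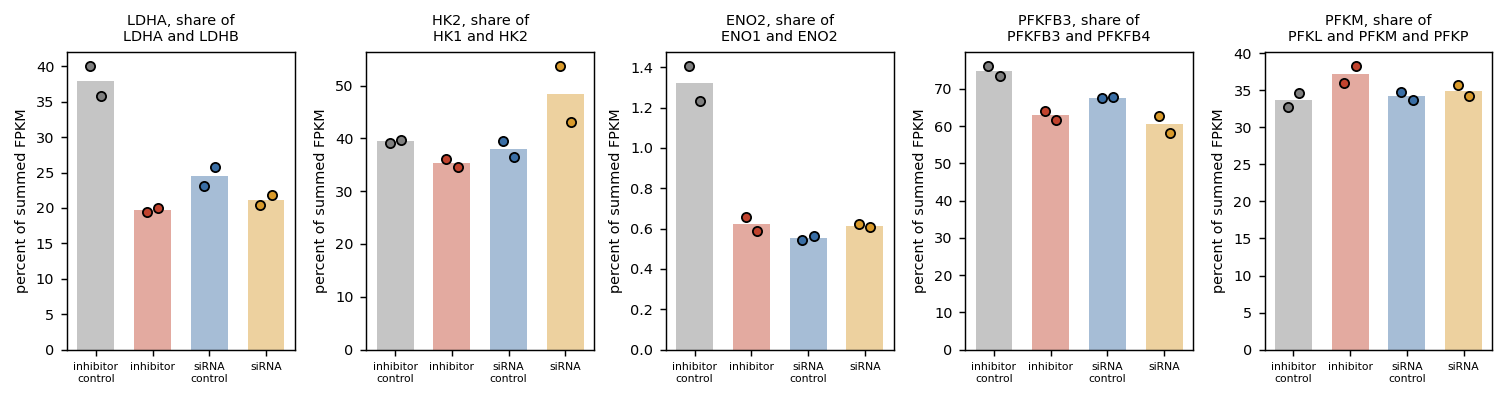
Share of 1 member in the summed FPKM of its isozymes (vertical axis, percent) for LDHA, HK2, ENO2, PFKFB3 and PFKM in the 4 groups; points are libraries and bars group means. The LDHA share stands at 40.0% and 35.8% in the inhibitor controls against 19.5% to 25.8% elsewhere.

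A share within a library does not depend on the scaling between libraries. LDHA made up 40.0% and 35.8% of the summed FPKM of LDHA and LDHB in the inhibitor controls, 19.5% and 20.03% with inhibitor, 23.1% and 25.8% in the siRNA controls, and 20.4% and 21.9% with siRNA. ENO2 made up 1.41% and 1.23% of the enolase FPKM in the inhibitor controls and 0.542% to 0.656% elsewhere. PFKFB3 made up 76.1% and 73.4% of the sum with PFKFB4 in the inhibitor controls, 64.1% and 61.7% with inhibitor, 67.5% and 67.8% in the siRNA controls, and 62.8% and 58.0% with siRNA. In each of these 3 pairs the inhibitor controls lay above all other libraries. The HK2 share of the hexokinases did not separate that way: it was 39.1% and 39.8%, 36.1% and 34.7%, 39.5% and 36.6%, and 53.7% and 43.1%, with both siRNA libraries highest. The PFKM share of the phosphofructokinases was 32.7% and 34.7% in the inhibitor controls, within reach of 33.6% to 38.3% elsewhere. The pairs of SLC2A1 and SLC2A3, SLC16A1 and SLC16A3, and EGLN1 and EGLN3 overlapped as well. ALDOC, at 4.02% and 4.14% against 4.69% to 6.53%, and BNIP3, at 64.8% and 63.7% against 65.3% to 70.1%, had their lowest shares in the inhibitor controls. No exact test of 2 libraries against 2 can pass 0.05, so these shares are given as values.

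Of the 4 transporters, SLC2A1 alone was called with inhibitor (25%, beside 36.5% of all genes). SLC2A1 (chr1:43391052-43424530), the glucose transporter GLUT1, had 44.9 and 41.7 FPKM in the inhibitor controls, 27.7 and 27.5 with inhibitor, 26.1 and 29.2 in the siRNA controls, and 18.5 and 19.1 with siRNA. It fell with inhibitor by 0.63 ± 0.07 on the log2 scale, 1.57-fold (limma adjusted p = 0.00029). The highest levels were in the inhibitor controls and the lowest with siRNA, and neither pair overlapped the 4 libraries between them. The monocarboxylate transporters SLC16A1 (MCT1), at 52.0 to 64.95 FPKM, and SLC16A3 (MCT4), at 52.4 to 62.7 FPKM, were not called. SLC2A3, the transporter GLUT3, stayed at 0.709 to 1.69 FPKM, and the confidence intervals deposited with it imply as few as 2.97 fragments in a library. The 3 pseudogenes named for SLC2A3 had a summed mean of 2.26 FPKM, beside 1.09 for the gene itself.

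PFKFB3, whose product makes the activator of phosphofructokinase, had 13.5 and 12.5 FPKM in the inhibitor controls against 9.198 and 8.75 with inhibitor, and fell by 0.49 ± 0.08 on the log2 scale (limma adjusted p = 0.00209; 0.0577 with the second run alone). PFKFB4, a second enzyme of that kind, was at 4.23 and 4.53 FPKM against 5.14 and 5.44 and was not called. PDK1, which inhibits pyruvate dehydrogenase, lay between 4.35 and 5.95 FPKM over all libraries and was not called.

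Of the 6 pentose phosphate genes 3 fell with inhibitor and 0 rose (50%), beside 36.5% of all genes (17.7% higher, 18.7% lower). PGD (chr1:10458649-10480201), the phosphogluconate dehydrogenase that yields NADPH, had 95.6 and 75.2 FPKM in the inhibitor controls, 32.6 and 33.1 with inhibitor, 37.4 and 42.4 in the siRNA controls, and 21.0 and 28.0 with siRNA. It fell with inhibitor by 1.34 ± 0.14 on the log2 scale, 2.6-fold (limma adjusted p = 0.000215) beside 2.69-fold for HK2. TKT (chr3:53258723-53290068), the transketolase that links the pathway back to glycolysis, was at 114 and 123 FPKM against 83.2 and 85.6 with inhibitor, and lay between 83.5 and 93.1 in the siRNA groups. RPIA, which makes ribose 5-phosphate, was at 14.5 and 14.1 FPKM against 9.26 and 8.65. TKT fell by 0.48 ± 0.06 (limma adjusted p = 0.000453) and RPIA by 0.62 ± 0.09 (limma adjusted p = 0.00121) on the log2 scale. TALDO1 (transaldolase), RPE (the ribulose phosphate epimerase) and PGLS (the lactonase) were not called, with log2 differences of -0.18, 0.13 and 0.01.

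**Figure D3:**
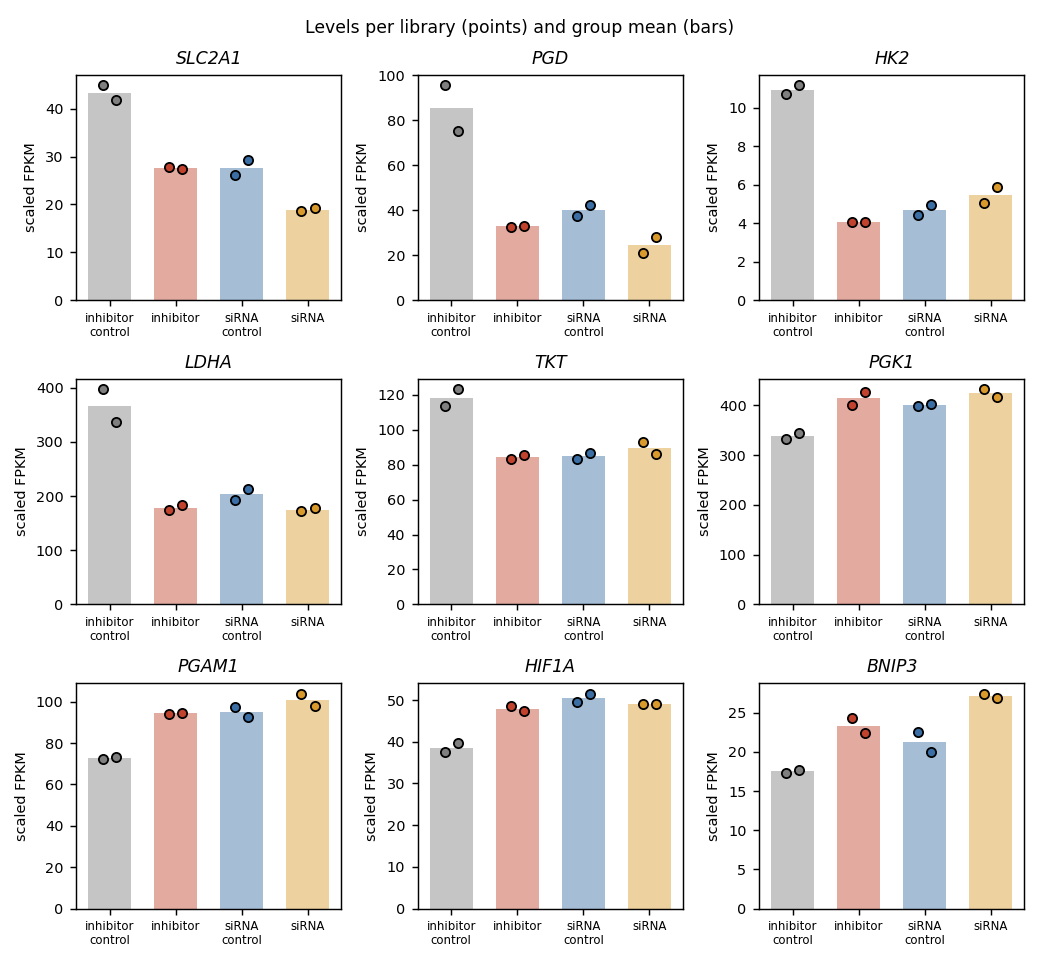
Scaled FPKM (vertical axes, from 0) of SLC2A1, PGD, HK2, LDHA, TKT, PGK1, PGAM1, HIF1A and BNIP3 in the 4 groups; points are libraries and bars group means. In SLC2A1 and PGD the siRNA points lie below those of the other 3 groups, and in all 9 genes the inhibitor control points lie at one end of the range.

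In the hypoxia response 2 of 10 tested genes rose and 2 fell with inhibitor (40%), near the 36.5% of all genes called. HIF1A (chr14:62162231-62214976) had 37.5 and 39.7 FPKM in the inhibitor controls, 48.7 and 47.3 with inhibitor, 49.7 and 51.5 in the siRNA controls, and 49.1 in both siRNA libraries. It rose with inhibitor by 0.31 ± 0.05 on the log2 scale (limma adjusted p = 0.00256; 0.0512 with the FPKM as deposited). The hydroxylase gene EGLN1 lay between 9.73 and 12.5 FPKM and EGLN3, a hydroxylase that HIF-1 itself induces, between 0.822 and 1.87 FPKM, and neither was called. EGLN3 had as few as 4.13 implied fragments in a library, and the protein-coding gene SPTSSA, with a mean of 5.53 FPKM, overlaps it.

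Of the 7 tested hypoxia targets 1 rose and 2 fell with inhibitor (42.9%, beside 36.5% of all genes). BNIP3 (chr10:133781578-133795435), a mitochondrial protein that promotes removal of mitochondria, had 17.4 and 17.6 FPKM in the inhibitor controls, 24.3 and 22.4 with inhibitor, 22.6 and 20.02 in the siRNA controls, and 27.4 and 26.9 with siRNA. It rose by 0.39 ± 0.07 on the log2 scale, 1.33-fold (limma adjusted p = 0.00352). VEGFA (chr6:43737921-43754224), the growth factor for blood vessels, was at 21.6 and 20.7 FPKM against 14.7 and 16.4, and 12.1 to 15.7 in the siRNA groups. NDRG1, a differentiation-related gene, was at 12.1 and 11.1 FPKM against 7.49 and 6.49, and 5.84 to 9.44 in the siRNA groups. VEGFA fell by 0.42 ± 0.09 (limma adjusted p = 0.00691) and NDRG1 by 0.66 ± 0.17 (limma adjusted p = 0.015) on the log2 scale. The VEGFA call was lost without inhibitor replicate 1 (limma adjusted p = 0.0565), and that of NDRG1 with no filter, with the first run alone, without inhibitor control replicate 1 and without inhibitor replicate 2 (limma adjusted p of up to 0.179). An antisense gene at 12.1 FPKM overlaps VEGFA. BNIP3L, a relative of BNIP3 with log2 difference 0.27, P4HA1, a collagen prolyl hydroxylase with 0.24, ADM, the vasodilator peptide adrenomedullin with -0.18, and ANKRD37 with 0.13 were not called. CA9 stayed between 0.110 and 0.712 FPKM, with at most 3.58 implied fragments in a library. The protein-coding genes UFSP2 and ARHGEF39, with means of 11.8 and 12.7 FPKM, overlap ANKRD37 and CA9 respectively.

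With siRNA, set against its own controls, 2 of the 40 genes changed, both lower, beside 2.13% of all genes tested (1.32% lower). These were SLC2A1, which fell 1.47-fold (log2 -0.53 ± 0.07, limma adjusted p = 0.0174), and PGD, which fell 1.63-fold (log2 -0.69 ± 0.14, limma adjusted p = 0.0442), with non-overlapping libraries in both. Neither call held in every setting. PGD lost its call without siRNA control replicate 1, without siRNA control replicate 2 and without siRNA replicate 1 (limma adjusted p = 0.0568, 0.27 and 0.168), and SLC2A1 without siRNA control replicate 2 and without siRNA replicate 1 (0.125 and 0.101). Both also lost it with either run alone, with no filter on low values and with only the 2 compared groups in the fit, and PGD with quantile normalization (limma adjusted p = 0.0534) and a block for replicate number (0.069), while both decreases kept their direction in every setting run. In all, 16 of the 40 genes had an unadjusted limma p under 0.05, beside 2670 of all 12846 genes. The libraries did not overlap for 28 of the 40 (12 higher, 16 lower), beside 49.7% of all genes (23.8% higher, 25.9% lower). The nearest other genes were BNIP3 (log2 0.34, limma adjusted p = 0.0544) and ALDOC (log2 0.28, limma adjusted p = 0.0715). HK2 (log2 0.18), LDHA (-0.21), GPI (-0.13) and HIF1A (-0.04) were not called with siRNA.

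The 2 effects were compared directly, as the siRNA effect minus the inhibitor effect. That difference was called for 7 of the 40 genes, 5 higher and 2 lower, beside 11.8% of all genes (6.67% higher, 5.16% lower). It was 1.42 ± 0.14 on the log2 scale for HK2 (limma adjusted p = 0.00111), 1.01 for ENO2 (0.00283), 0.82 for LDHA (0.00381), 0.64 for GPI (0.00219) and 0.56 for TKT (0.00562), each of which fell with inhibitor and was not called with siRNA. It was -0.35 for HIF1A (0.0223) and -0.29 for PGAM1 (0.0366), which rose with inhibitor and were not called with siRNA. Both of these lower calls were lost with the FPKM as deposited, with no filter and with either run alone (limma adjusted p of up to 0.168 for HIF1A and 0.27 for PGAM1 over all settings). HIF1A also lost its call without inhibitor control replicate 1, either inhibitor library, siRNA control replicate 2 or siRNA replicate 2, and PGAM1 without either inhibitor control, either inhibitor library, siRNA control replicate 1 or siRNA replicate 2. With a block for replicate number, only 1 lower call remained. The calls of LDHA and TKT were lost with no filter (limma adjusted p = 0.0637 and 0.056), and that of TKT with the FPKM as deposited (0.0711). For SLC2A1 the difference was 0.10 ± 0.10 (limma adjusted p = 0.563) and for PGD 0.65 ± 0.20 (limma adjusted p = 0.0645), neither of them past the threshold.

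**Figure D4:**
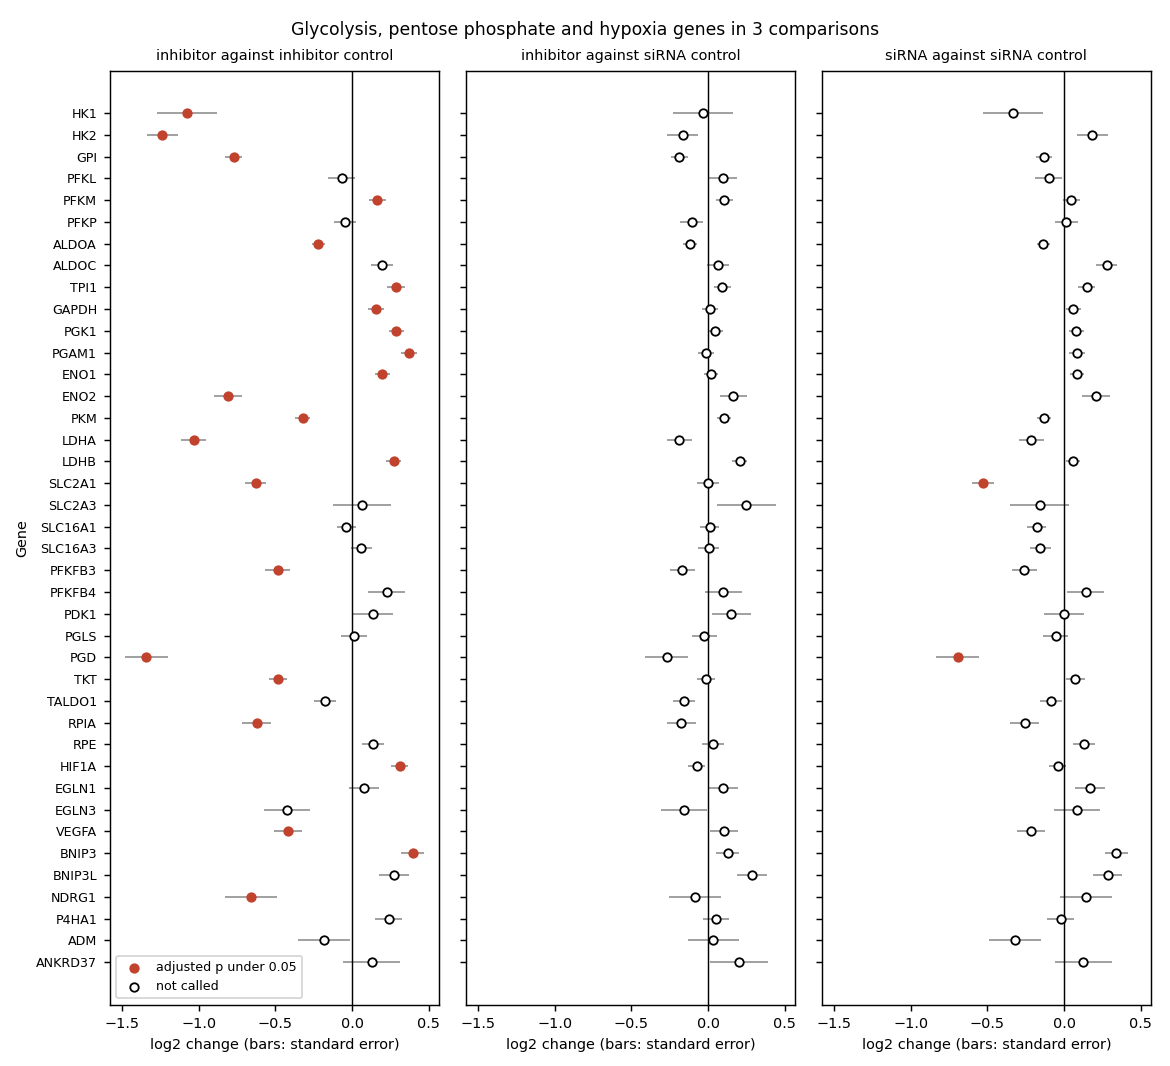
Log2 change (horizontal axis; bars are standard errors) of the 40 tested genes (rows) for inhibitor against inhibitor control, inhibitor against siRNA control and siRNA against siRNA control. Filled points passed an adjusted p of 0.05: 23 in the first panel, 0 in the second and 2 in the third.

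The inhibitor libraries were also set against the siRNA controls, since the control groups differed from each other. In that comparison 0 of the 40 genes were called (limma), beside 0.0389% of all genes. An unadjusted limma p under 0.05 was reached by 6 of the 40, beside 1599 of all 12846 genes. The differences ranged from -0.27 for PGD to 0.29 for BNIP3L on the log2 scale. HK2, LDHA and GPI were at -0.17, -0.19 and -0.19 and SLC2A1 at -0.00056 there, against -1.24, -1.03, -0.77 and -0.63 with the inhibitor's own controls. Their standard errors of 0.10, 0.08, 0.05 and 0.07 apply to both comparisons, and a p that misses the threshold does not show that the levels are equal. This comparison shares its siRNA control libraries with that of the siRNA.

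The siRNA controls against the inhibitor controls gave 19 calls among the 40 genes, 6 higher and 13 lower, beside 38.3% of all genes (19.2% higher, 19% lower). HK2 (log2 -1.07, limma adjusted p = 0.000112), PGD (-1.07, 0.000529), HK1 (-1.04, 0.00322), ENO2 (-0.97, 0.00011), LDHA (-0.85, 0.000113), SLC2A1 (-0.63, 0.000258) and GPI (-0.58, 9.94e-05) were lower, and HIF1A (0.38, 0.000804) and PGAM1 (0.38, 0.00064) were higher. With the FPKM as deposited there were 13 lower and 0 higher calls among the 40. That setting called 3598 of all 12846 genes, 648 higher and 2950 lower, and the median over all genes was then -0.11 on the log2 scale. This comparison shares its inhibitor control libraries with that of the inhibitor, so the 2 sets of values are not independent. For 28 of the 40 genes both inhibitor control libraries lay outside the range of all other 6, 15 above and 13 below, beside 51.6% of all genes tested (25.8% above and 25.8% below).

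Other genes of these pathways were taken from lists of textbook members, of which 80 genes were tested. With inhibitor, 14 of the 80 rose and 14 fell, or 35%, near the 36.5% of all genes, so the genes named next are given as values and do not set these lists apart. In all, 0 of 80 were called in the inhibitor against siRNA control comparison, beside 0.0389% of all genes (limma). There, 11 of the 80 had an unadjusted limma p under 0.05, beside 1599 of all 12846 genes. Among the other hypoxia factors and their regulators (10 tested, 1 higher and 3 lower), HIF1AN, the asparaginyl hydroxylase of HIF-1 alpha, fell by 1.06 on the log2 scale (16.3 to 7.30 FPKM, limma adjusted p = 0.00066), and VHL, which binds the hydroxylated subunit, fell by 0.26 (26.7 to 22.2 FPKM, limma adjusted p = 0.0122). Among 33 further hypoxia targets 5 rose and 7 fell, including KDM3A, a histone H3 lysine 9 demethylase (log2 -0.60, limma adjusted p = 0.00261), and STC2, a secreted glycoprotein (-0.69, 0.00356). Of 13 further glycolysis genes 3 rose and 2 fell, including TIGAR, a fructose bisphosphatase (log2 -0.53, limma adjusted p = 0.00202), and MINPP1, an inositol polyphosphate phosphatase (0.52, 0.00177). Of 12 genes for pyruvate entry into mitochondria 3 rose and 1 fell, the latter DLD, the shared dehydrogenase subunit of the pyruvate complex (log2 -0.50, limma adjusted p = 0.000451). Of 6 further transporters 1 rose and 0 fell, and of 6 further pentose phosphate genes 1 rose and 1 fell. With siRNA, 2 of the 80 fell and 0 rose (2.5%), near the 2.13% of all genes called. These were BSG, the partner protein of the monocarboxylate transporters, from 200.02 to 170.9 FPKM (log2 -0.23, limma adjusted p = 0.0468), and DLD, from 31.3 to 25.3 FPKM (-0.29, 0.0487). Both of these siRNA calls were lost with no filter, with other scaling, with either run alone and with any library left out except siRNA control replicate 1, where 1 remained.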

How the data were processed

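RNA libraries from HCT116 cells were sequenced in 4 groups of 2 libraries with 2 runs each. The authors deposited gene-level FPKM per run from Cufflinks, per the file headers. STAR 2.3.0e, SAMtools 0.1.19 and hg19 are named in the submitters' processing notes. No source used here gives the Cufflinks options, the annotation release or the use of strand. Repeated identifiers among the 63784 entries of each of the 16 files were summed, which left 63653 genes.

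The runs of a library were averaged, and median-of-ratios scaling used factors between 0.878 and 1.09. The test was limma 3.58.1 in R 4.3.3 with a mean-variance trend, two-sided, on log2(scaled FPKM + 1), with all 4 groups in 1 fit and Benjamini-Hochberg adjustment over the 12846 genes with a mean of at least 1 FPKM and a locus of at least 300 bases. A log2 change on this scale understates changes of low genes. A gene was called at an adjusted p under 0.05. The fit was tested on simulated data.

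The files hold no counts. Fragments implied by the Cufflinks intervals had medians over the 41 genes between 361.6 and 1489 per library, and runs of a library differed by a median of 0.147 on the log2 scale. The 2 runs are technical, so n = 2 per group.

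The members and lists were chosen with earlier results of these data known. Of the members, those called in a comparison are given with full statistics, and the others by level. Of each list, at most the 4 called genes with the smallest p could be named. Alternatives were another pseudocount (0.1), no filter, the FPKM as deposited, quantile normalization, each run alone, a block for replicate number, only the compared groups, and each library left out. Replicate numbers were not used as pairs in the main fit. Results for 1 gene of the lists are not reported here.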

Additional observations from a re-analysis of the deposited data

Results flagged for a closer look

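The siRNA effect differed from the inhibitor effect by a direct test for 7 of the 40 tested genes (limma, the siRNA effect minus the inhibitor effect on the log2 scale). The differences were 1.42 for HK2, 1.01 for ENO2, 0.82 for LDHA, 0.64 for GPI, 0.56 for TKT, -0.35 for HIF1A and -0.29 for PGAM1. The HIF1A and PGAM1 calls were lost with the FPKM as deposited, with no filter, with either run alone and with most single libraries left out, at limma adjusted p of up to 0.168 and 0.27. The inhibitor effect in each rests on the 2 inhibitor control libraries, whose RNA makeup differed from the remaining 6. Groups of 2 libraries are too small for a test of single outlying libraries.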

How the results depend on the processing

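With 2 libraries per group and the depths given, small changes and low genes such as CA9, SLC2A3 and EGLN3 could not be resolved. Of the alternatives to the called results of single genes, 531 kept direction and threshold, 101 missed the threshold and 1 turned: GAPDH with inhibitor was -0.015 with quantile normalization. The causes were not tested.

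For inhibitor against inhibitor control (4686 genes, 23 of the set, 28 of the lists), genes called were 2986 with no filter, 3112 with FPKM as deposited (1083 higher, against 2278 of the 4686) and 3117 with the first run alone, and 2673 to 3475 with a library left out. The set had 15 calls with FPKM as deposited and 19 to 21 with a library left out. The lists had 18 with the first run alone and 18 to 25 with a library left out. EHMT2 passed the threshold at -0.34 without inhibitor control replicate 2, the range being -0.34 to -0.12.

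For siRNA against siRNA control (273 genes, 2 of the set, 2 of the lists), genes called were 5 with no filter, 134 with FPKM as deposited (20 higher, against 103 of 273), 31 and 45 with the first and second run alone, 24 with only the compared groups, and 9 to 423 with a library left out. The set had 0 with no filter, with either run alone and with only the compared groups, and 0 to 2 with a library left out. The lists had 0 in these settings, with quantile normalization and with FPKM as deposited, and 0 to 1 with a library left out. Quantile normalization gave 135 higher of 275 genes.

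With replicate number as a block, siRNA calls were 68 genes, 1 of the set (PGD at adjusted p = 0.069, limma) and 0 of the lists. Same-numbered libraries deviated with correlations of -0.098 to 0.048. No shared shift by number was seen, which cannot show whether same-numbered libraries were prepared together.

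For inhibitor against siRNA control (5 genes), calls were 0 with no filter, 32 with FPKM as deposited, 1 and 2 with the first and second run alone, and 0 to 43 with a library left out. For siRNA control against inhibitor control (4916 genes, 32 of the lists), they were 3236 with no filter, 3212 with the first run alone, and 3484 to 3913 with a library left out. The lists had 20, 17 and 19 with no filter, FPKM as deposited and the first run alone, and 20 to 26 with a library left out. For the difference between effects (1520 genes, 7 of the set, 6 of the lists), genes were 245 with no filter, 738 with FPKM as deposited, 526 and 717 with the first and second run alone, and 487 to 1482 with a library left out. The set had 3 with no filter. The lists had 0, 1, 1 and 0 in these 4 settings and 1 to 4 with a library left out.

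By first and second run, the HK2 share was 41.4% and 37.5% in inhibitor controls. The ENO2 share was 1.47% and 1.19% there, 0.616% and 0.498% in siRNA controls, 0.676% and 0.562% with siRNA, and 0.670% in the first run with inhibitor. The PFKFB3 share was 58.8% and 66.3% with inhibitor and 66.7% and 68.5% in siRNA controls.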
